A study of Mus musculus with 6 samples.

Results

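The acrosome and sperm-egg interaction genes were followed from testes to mature sperm in mice. They were chosen by name as 48 gene names for proteins of the acrosome, of the sperm surface and of gamete fusion, by a rule that uses names and no measured value, although earlier results of these data were known when the list was drawn up. Of these names, 45 had a row among the RefSeq mRNAs of the deposited tables, out of 14455 genes with such a row. Prss55 and Tmem95 had no row, nor did Equatorin, which is another name of the listed gene Eqtn. Mature sperm of C57BL/6 mice, aged 3 to 5 months by the sample labels, were collected from the caudal epididymis and vas deferens, and each of the 4 sperm samples was a pool over several mice. The 2 testes samples came from the same mice, untreated and of the same strain and age, and held whole tissue with germ cells and somatic cells together. The study's methods give a younger age range and a substrain name ending in J. Libraries were strand-specific and depleted of ribosomal RNA. By the study's account, sperm were treated with a lysis buffer against somatic cells. Their RNA was richer in small sizes and lacked the ribosomal RNA peaks seen in testes. This difference in RNA size coincides with the groups, and its part in the results was not tested. Sperm replicate 1 was left out of the comparisons by the study after its correlation check, so its values are given beside those of sperm replicates 2 to 4 but did not enter the tests.

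The acrosome is a secretory vesicle that caps the nucleus of the sperm head. On contact with the egg coat it fuses with the plasma membrane, releases its enzymes and exposes membrane proteins that take part in binding to and fusing with the egg. Its proteins are made during the meiotic and spermatid stages in the testis, where chaperones of the endoplasmic reticulum help to fold them and where ADAM family proteins are put together into complexes of the sperm surface. Mature sperm do not make new transcripts to any extent.

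The values are estimated fragment counts of RefSeq mRNAs, summed per gene. A level is a gene's count with the mRNA counts of its sample scaled to 1000000 (CPM), and a per-length level is this value divided by the length of the transcript in kilobases. The mRNA counts summed to 42390, 100027, 33511 and 54337 in sperm replicates 1 to 4, and to 322625 and 314273 in testes replicates 1 and 2, or 9.14% to 12.1% of all counts of a sample. At these depths 3 counts amounted to 29.99 to 89.5 CPM in a sperm sample and to 9.30 and 9.55 CPM in the testes samples. Over sperm replicates 2 to 4 together, 3 counts were worth 15.97 CPM, which served as the limit that a count of 0 allows. In every sperm sample Abi3 was the gene with the most mRNA counts, with 12.6% ± 2.17 (SD, n = 3) of them, and the 10 leading genes held 28.4% ± 4.42 in sperm (n = 3) against 12.7% ± 1.08 in testes (n = 2).

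Marker genes were checked before the members. Of 14 markers of late spermatids and sperm, 13 had counts in sperm, with Odf1 at 0, and their summed level was 1722 to 4775 CPM over the 4 sperm samples against 3755 and 3393 CPM in testes. Of 10 markers of spermatogonia and spermatocytes, 9 were at 0 in all sperm samples, among them Dazl, Ddx4 and Sycp3. The summed level was 0 to 92.0 CPM against 248 and 356 CPM in testes. Kit, Zbtb16 and Dmc1 were at 0 in both testes samples too, so their 0 in sperm does not separate the groups. Sertoli cell markers were at 0 for 7 of 9 genes in sperm, with 0 to 39.99 CPM in all against 80.6 and 80.9 CPM in testes. Leydig cell markers were at 0 for 6 of 8 genes, with 0 to 1194 CPM in sperm, the highest value being the 40 counts of sperm replicate 3, against 580 and 544 CPM in testes. Epididymal epithelial markers were at 0 for 10 of 11 genes, with 0 to 92.0 CPM against 6.20 and 60.5 CPM in testes, and leukocyte markers for 5 of 7 genes, with 0 to 39.99 CPM against 43.4 and 25.5 CPM. Cd4 and Cd52 were the 2 leukocyte markers with counts in sperm. At 0 in both testes samples were 6 of the epididymal, 2 of the Sertoli, 2 of the leukocyte and 1 of the Leydig cell markers. The part of these cells in the results on the members was not tested.

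Most members of the acrosomal and fertilization machinery had a count in testes, many of them only a few. Few members had one in sperm, where Adam1a and the angiotensin-converting enzyme gene Ace were the exceptions. A count was found for 40 of the 45 listed members in each testes sample and for all 45 in at least 1 of them. At least 3 counts were found for 27 and 31 members in testes replicates 1 and 2, and for 6, 2 and 4 in sperm replicates 2, 3 and 4. At least 1 count was found for 10, 2 and 5 members in sperm replicates 2, 3 and 4, and for 4 in sperm replicate 1. Only Adam1a and Ace were counted in all 4 sperm samples. At 0 in sperm replicates 2 to 4 were 34 members, or 75.6%, beside 49.2% of all 14455 mRNA genes, and 33 of the 34 were also at 0 in sperm replicate 1, Adam1b being the other.

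Because the sperm samples were shallower, the testes samples were thinned by calculation to each sperm sample's mRNA total. At the total of sperm replicate 2, a count was expected for 29.7 and 32.1 members from testes replicates 1 and 2, against 10 found. For sperm replicate 3 the numbers were 19.5 and 22.7 against 2, and for sperm replicate 4 they were 23.8 and 26.8 against 5. Sperm replicate 1, with 4 found, stood against 21.5 and 24.7. In each sperm sample the number found was below both expectations. A shortfall was also seen over all mRNA genes. In sperm replicate 2 the members found were 33.7% and 31.2% of those expected from testes replicates 1 and 2, beside 74.1% and 80.3% for all genes. In replicate 3 these were 10.3% and 8.81% beside 25.9% and 28.5%, and in replicate 4 they were 21.0% and 18.6% beside 45.3% and 49.6%. The difference between the members and all genes was not tested. Of the 34 members at 0, 12 had a mean testes level above the limit of 15.97 CPM and their sperm level lay at least 1.09-fold to 19.3-fold below it (median 3.95). The other 22 had a testes level under that limit, and a lower level in sperm was not detectable for them at this depth. The bounds of the 12 cover counting error only, with sperm replicates 2 to 4 pooled and the testes mean taken as exact. They leave out the spread between replicates, and 8 of the 12 were not called in the gene-by-gene test below. The largest bound, that of Adam1b, also takes as given how the authors' counting divided counts between Adam1b and its near-copy Adam1a.

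**Figure D1:**
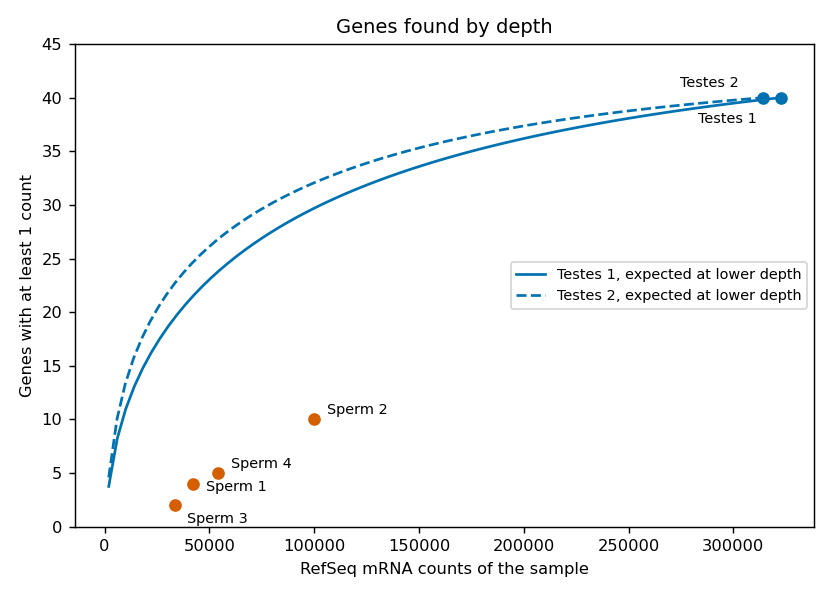
Number of the 45 listed members with at least 1 count (y axis) against the RefSeq mRNA counts of the sample (x axis), as 1 point per sample, with curves for the number expected from each testes sample at lower depths. The sperm points lie at 2 to 10 members, below the 19.5 to 32.1 that the curves give at their depths, and both testes points lie at 40.

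Summed over all members, the share of mRNA counts was higher in sperm, and the sum rested on Adam1a. It was 0.454% (95% Wilson interval 0.414 to 0.497) in sperm replicate 2, 0.415% (0.351 to 0.490) in replicate 3 and 0.346% (0.30 to 0.399) in replicate 4. In testes replicates 1 and 2 it was 0.236% (0.220 to 0.254) and 0.283% (0.265 to 0.302), and in sperm replicate 1 it was 0.649% (0.577 to 0.730). These intervals cover counting error only. The sperm mean of 0.405% ± 0.0546 (SD, n = 3) was 1.56 times the testes mean of 0.260% ± 0.0330 (n = 2), and the groups did not overlap.

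Adam1a alone held 84.1%, 78.4% and 76.1% of the members' counts in sperm replicates 2 to 4, with 81.2% in the remaining sperm sample and 22.5% and 16.7% in testes. Without Adam1a the order of the groups turned, with 0.0814% ± 0.00885 in sperm against 0.209% ± 0.0372 in testes, a ratio of 0.389. Adam1a and Ace together made up 96.7% ± 2.89 of the members' counts in sperm (n = 3) and 31.1% ± 8.29 in testes (n = 2). With Adam1a, its near-copy Adam1b and Ace all set aside, the remaining members had 21, 0 and 10 counts in sperm replicates 2 to 4 (4 in replicate 1). At their testes level 281 counts would have been expected over sperm replicates 2 to 4, where 31 were found, and the share was 0.0131% ± 0.0114 in sperm against 0.150% ± 0.0451 in testes. In bulk samples fewer cells of a type and less RNA per cell cannot be told apart, and here the groups also differed in cell types.

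**Figure D2:**
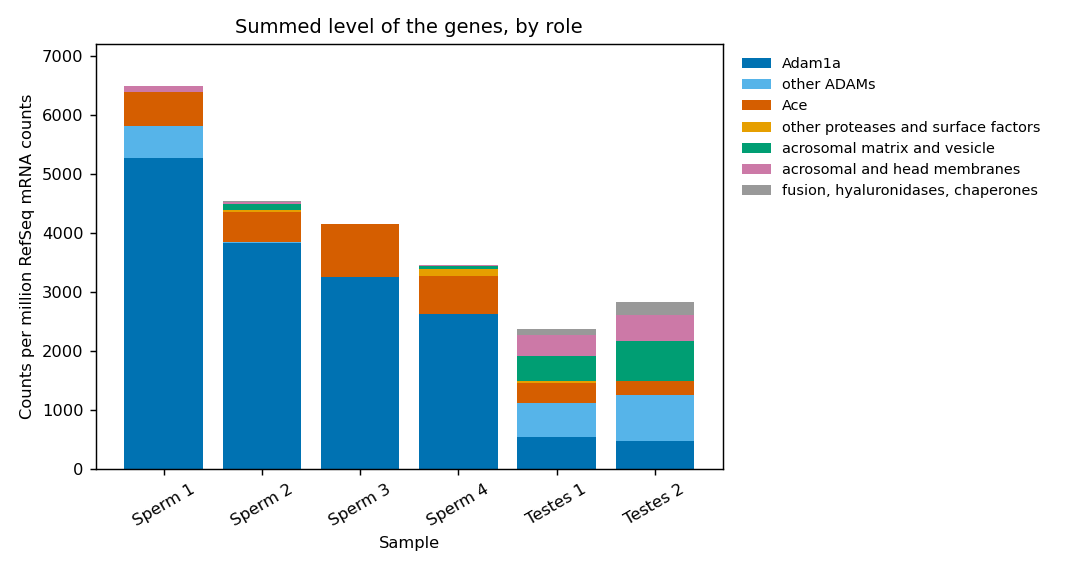
Summed level of the members in each of the 6 samples, in CPM (bars stacked from 0), split into Adam1a, Ace and the remaining members by role. Adam1a fills 76.1% to 84.1% of the bar in the sperm samples and 16.7% to 22.5% in the testes samples.

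Gene by gene, 23 members had a summed count of at least 10 over the 5 samples compared and were tested by edgeR's quasi-likelihood test together with all other such mRNA genes, 6828 in all. Called at a Benjamini-Hochberg adjusted p below 0.05 and a fold above 2 were 1 member higher in sperm, Adam1a, and 4 lower, namely Adam1b, Crisp2, Fam170b and Adam5. Of all genes tested, 3.54% were called higher (242 genes) and 3.65% lower (249 genes), so the 1 of 23 higher lay near the background and the 4 of 23 lower above it. The other 18 tested members were not called, and at an unadjusted p under 0.05 the numbers were 14 lower and 2 higher, beside 30% (2049 genes) and 9.55% (652 genes) of all genes tested. The split depended on the scaling, since with TMM factors 0 members were called higher and 1 lower (0.337% and 1.32% of all genes). With DESeq2, which differs both in scaling and in its test, it was 0 and 8 (2.65% and 12.1%). It also moved with the samples and the filter. With all 4 sperm samples it was 1 higher and 10 lower of 23 members (3.83% and 17.5% of all genes). With a summed count of at least 30, only 14 members were tested, of which 1 was higher and 10 lower (7.92% and 22.6% of all genes). Relative to the scale used here, the median log2 fold change of all genes moved by -0.64 with TMM and by -1.03 with DESeq2. The p-values measure the spread between these samples, which are separate pools of mice for sperm.

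The median log2 fold change of the 23 tested members was -4.58, beside -1.19 over all 6828 genes, and 19 of the 23 were below 0, or 82.6% beside 66.0%. Because 13 of the 23 were at 0 in sperm, their fitted changes depend on a small added count. With such genes placed at the bound that 3 counts allow, the medians were -1.61 for the members and -0.53 for all genes. In 16 of the 23 tested members every one of sperm replicates 2 to 4 was below both testes samples, beside 45% of all genes tested (3074 genes). Above both testes samples in all 3 were 2 members, Adam1a and Ace, beside 7.72% (527 genes). The 22 members not tested had at most 7 counts in a testes sample, and 1 of them, Adam4, had a count in sperm, a single one in replicate 2.

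**Figure D3:**
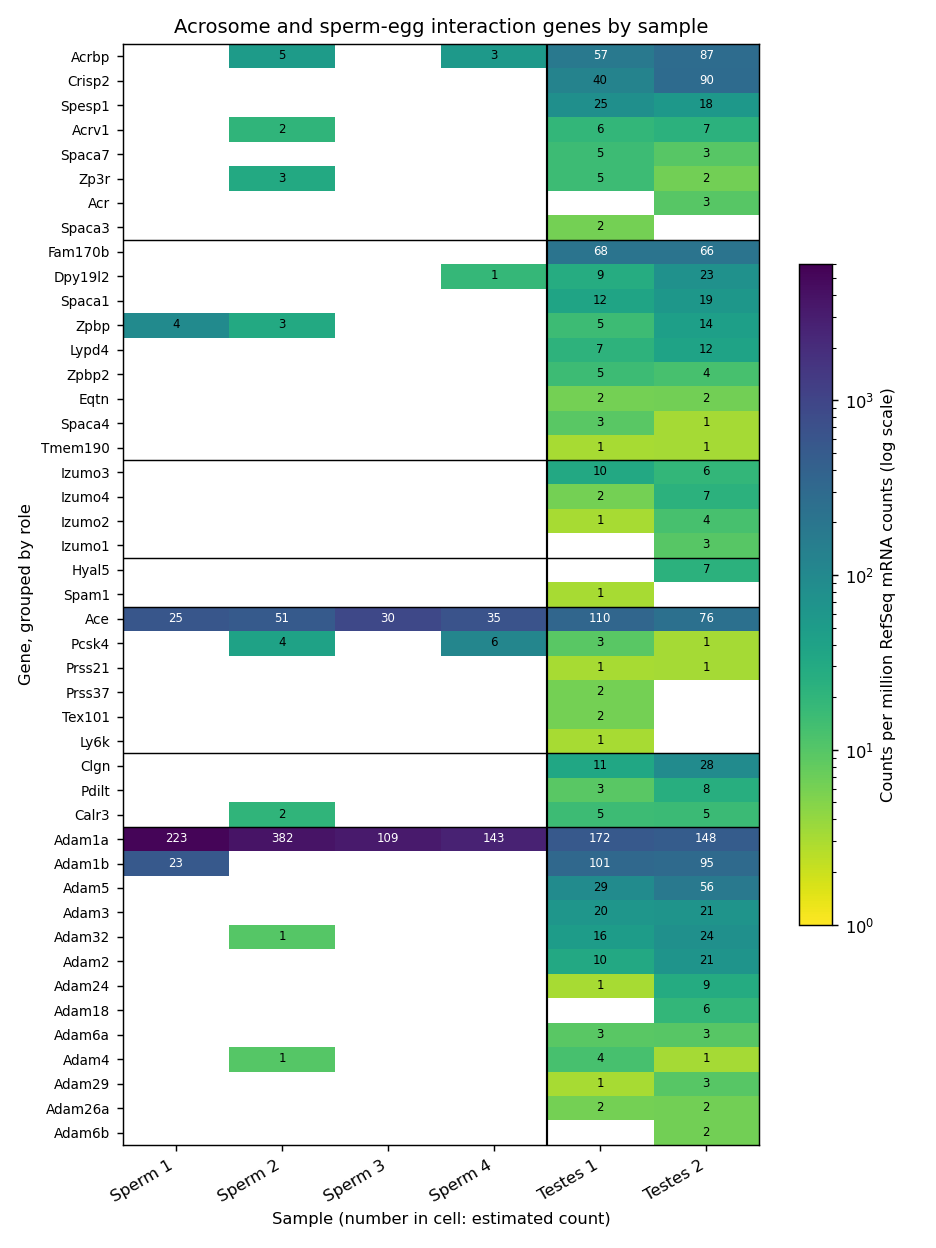
Level of each of the 45 listed members (rows, grouped by role) in the 6 samples (columns), coloured by CPM on a log scale, with the rounded estimated count in the cell and white cells at 0. Adam1a and Ace are the rows filled in all sperm columns, while most other rows are white in sperm and filled in the testes columns.

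**Figure D4:**
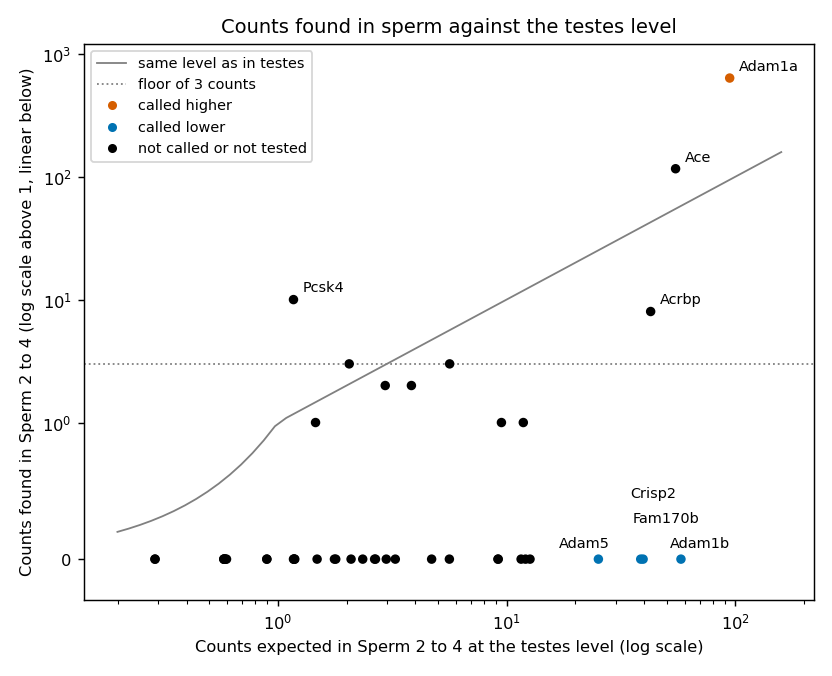
Counts found over sperm replicates 2 to 4 (y axis, log scale above 1 and linear below) against the counts expected there at each member's mean testes level (x axis, log scale), with 1 point per listed member, a line for equal levels and a dotted line at 3 counts. Adam1a lies above the line of equal levels, with 634 counts found against 94.3 expected, and Crisp2, Fam170b and Adam1b lie at 0 with 38.5, 39.5 and 57.8 expected.

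Among the ADAMs, metalloprotease-disintegrin family proteins of which several form complexes on the sperm surface, 13 members were listed and 7 tested. Of the 7, 1 was called higher and 2 lower, beside 3.54% and 3.65% of all genes tested. The calls include Adam1a and Adam1b, between which counts were shared out by the authors' counting. Adam1a encodes a fertilin alpha subunit that pairs with the beta subunit, encoded by Adam2, inside developing germ cells, while the product of Adam1b forms the pair on the sperm surface. Its gene lies on chromosome 5 at 121518604 to 121521695, on the minus strand of GRCm38.p6 in the RefSeq annotation. The gene span of 3092 bases equals the transcript length, so the annotation gives it no intron. Adam1a had 382, 109 and 143 counts in sperm replicates 2 to 4 (replicate 1 had 223.3), while the testes samples had 171.72 and 148.34. As levels these were 3819, 3253 and 2632 CPM (5268 CPM in replicate 1) against 532 and 472 CPM. Every sperm sample was above both testes samples.

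The mean level of Adam1a was 3234 ± 594 CPM in sperm (SD, n = 3) and 502 ± 42.6 CPM in testes (n = 2), 6.44 times as high, and the log2 fold change came to 2.69 ± 0.52 (SE) at an edgeR adjusted p of 1.53e-05. The log2 fold change was 1.97 with TMM (adjusted p = 0.106) and 1.65 with DESeq2 (adjusted p = 0.0805), so the call was lost with both. It was also lost without the filter on low counts (adjusted p = 0.0846). Without sperm replicate 2 it was kept at 2.55 (adjusted p = 0.0498). By per-length level Adam1a ranked between 21 and 45 among all mRNA genes in the 4 sperm samples and was 326 and 388 in the testes samples. The other members without introns in the annotation, Spaca4, Adam4, Adam6a and Adam6b, had 1 count among them in sperm.

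Adam1b, the near-copy of Adam1a and its neighbour on chromosome 5 (121500096 to 121503435, minus strand), went the other way. It was at 0 in sperm replicates 2 to 4 and had 22.7 counts in sperm replicate 1, against 101.28 and 94.66 counts in testes. The level in testes was 308 ± 8.995 CPM (n = 2), and sperm replicates 2 to 4 were lower by at least 19.3-fold (edgeR adjusted p = 0.00279). Both the bound and the call take the authors' division of counts between Adam1a and Adam1b as given, and that division is uncertain. With sperm replicate 1 included, where the level was 536 CPM and above both testes samples, the log2 fold change was -1.22 (adjusted p = 0.480) and the call was lost. Adam1b overlaps the gene Tmem116 in the annotation.

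The counts of Adam1a and Adam1b were shared out by the authors' counting. In every sample where they were not whole, they summed to a whole number, 246 in sperm replicate 1 and 273 and 243 in the testes replicates. Adam1a was given 100% of the pair's counts in sperm replicates 2 to 4, 90.8% in replicate 1, and 62.9% and 61.0% in testes. How the counts divide between the copies is therefore uncertain. Taken as 1 gene, an alternative added after the data were seen, the pair had 3819, 3253 and 2632 CPM in sperm replicates 2 to 4 (replicate 1 had 5803 CPM), while the testes samples had 846 and 773 CPM. Its log2 fold change came to 2.0 ± 0.49 (SE) at an edgeR adjusted p of 0.00171. At this scaling the summed pair was therefore higher in sperm, as was Adam1a counted alone, while Adam1b counted alone was lower.

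**Figure D5:**
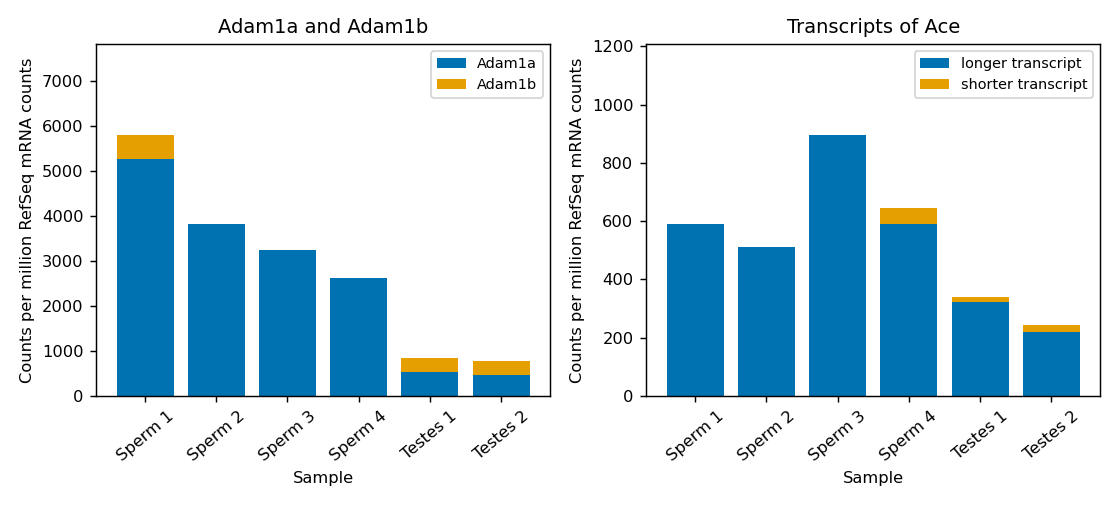
Level in CPM in each of the 6 samples, as bars stacked from 0, for Adam1a and Adam1b (left) and for the longer and shorter transcripts of Ace (right). Adam1a and Adam1b sum to 2632 to 5803 CPM in sperm and to 846 and 773 CPM in testes, with Adam1b at 0 in sperm replicates 2 to 4, and the longer Ace transcript holds 91.0% to 100% of the bar in all samples.

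The promoters of the copies are shown because the counts given to them by the authors' counting moved apart, although that division is uncertain. They are the 300 bases that RefSeq gives around each start on the gene's strand (GRCm38.p6). The Adam1a window is chr5:121521646-121521945 and the Adam1b window is chr5:121503386-121503685, both on the minus strand. Neither holds TATAAA, TGAGGTCA, TGACGTCA or TGACG.
Adam1a: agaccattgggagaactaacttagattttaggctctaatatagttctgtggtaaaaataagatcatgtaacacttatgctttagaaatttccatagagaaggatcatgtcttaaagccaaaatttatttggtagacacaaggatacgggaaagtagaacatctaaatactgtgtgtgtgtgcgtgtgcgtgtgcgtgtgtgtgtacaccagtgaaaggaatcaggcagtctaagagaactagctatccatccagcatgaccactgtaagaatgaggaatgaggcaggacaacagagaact
Adam1b: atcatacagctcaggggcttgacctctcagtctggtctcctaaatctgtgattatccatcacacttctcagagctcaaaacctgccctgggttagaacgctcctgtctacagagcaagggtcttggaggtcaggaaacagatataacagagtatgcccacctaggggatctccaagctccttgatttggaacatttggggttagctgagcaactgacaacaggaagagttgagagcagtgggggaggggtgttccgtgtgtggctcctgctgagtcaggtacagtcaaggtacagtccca

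Other ADAMs of the sperm surface were at or near 0 in sperm. Adam5 was at 0 in all 4 sperm samples against 29 and 56 counts in testes (134 ± 62.4 CPM, n = 2), lower by at least 8.39-fold with an edgeR adjusted p of 0.0436. Adam3, required for sperm to migrate into the oviduct and to bind the egg coat, was at 0 in all 4 sperm samples against 20 and 21 counts in testes. Its bound was at least 4.03-fold lower, and the adjusted p of 0.0746 missed the threshold. Adam32 had 1 count in sperm replicate 2 and 0 in the other sperm samples against 16 and 24 counts in testes, which gave a log2 fold change of -3.49 with SE 1.77 and an adjusted p of 0.123. The groups did not overlap for any of these genes. Adam2, the fertilin beta subunit, was at 0 in sperm against 10 and 21 counts, with a bound of at least 3.06-fold lower that was not called (adjusted p = 0.0746), while the remaining ADAMs had 0 to 9 counts in a testes sample. Adam18, Adam3, Adam5 and Adam32 lie side by side on chromosome 8, between 24602246 and 24948918, and share this 1 count in sperm.

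Ace encodes angiotensin-converting enzyme, whose testis form is a shorter protein made from a start inside the gene and needed for male fertility. It had 51, 30 and 35 counts in sperm replicates 2 to 4 (replicate 1 had 25), while the testes samples had 110 and 76. The levels were 510, 895 and 644 CPM (590 CPM in replicate 1) against 341 and 242 CPM. Every sperm sample was above both testes samples, with means of 683 ± 196 CPM (n = 3) and 291 ± 70.1 CPM (n = 2). The log2 fold change, 1.22 ± 0.79 (SE) at an edgeR adjusted p of 0.252, did not pass the test here or under any alternative, and with TMM it was 0.31 (adjusted p = 0.850).

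The estimated counts of Ace were divided between a transcript of 4906 bases and one of 3129 bases. The longer one received 100% of the counts in sperm replicates 1 to 3, 91.4% in replicate 4, and 94.8% and 91.0% in testes. The shorter transcript, which begins at the inner start, was given 3 counts in sperm replicate 4 and 5.71 and 6.81 counts in testes. The transcripts share most of the 3' part of the gene, so the division is an estimate by the authors' counting, and it did not separate sperm from testes.

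Both Ace starts are shown because RefSeq gives a transcript from each, first the window at the outer start, chr11:105967698-105967997, then that at the inner start, chr11:105974939-105975238, both on the plus strand (RefSeq, GRCm38.p6). Capitals mark TGAGGTCA, an octamer like the cAMP response element, which begins 52 bases before the inner start.
Ace outer start: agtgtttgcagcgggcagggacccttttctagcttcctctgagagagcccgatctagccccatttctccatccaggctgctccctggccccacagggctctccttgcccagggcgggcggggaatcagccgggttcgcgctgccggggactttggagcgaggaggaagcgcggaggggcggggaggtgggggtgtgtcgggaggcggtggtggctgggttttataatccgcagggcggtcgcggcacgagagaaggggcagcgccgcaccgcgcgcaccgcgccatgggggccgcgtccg
Ace inner start: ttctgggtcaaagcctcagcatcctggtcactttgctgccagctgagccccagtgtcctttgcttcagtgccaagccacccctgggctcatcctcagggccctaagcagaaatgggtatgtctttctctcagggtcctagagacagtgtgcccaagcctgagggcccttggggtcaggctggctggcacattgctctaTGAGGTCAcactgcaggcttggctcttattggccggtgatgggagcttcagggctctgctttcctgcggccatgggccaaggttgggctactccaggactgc

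Proteases and surface maturation factors other than Ace were scarce in both tissues. Pcsk4, a proprotein convertase of the acrosome and sperm surface, had 4, 0 and 6 counts in sperm replicates 2 to 4 (replicate 1 had 0), while the testes samples had 3 and 1. The log2 fold change stood at 2.93 ± 1.48 (SE) at an edgeR adjusted p of 0.123, and the groups overlapped. The study lists qPCR primers for Pcsk4 and reports the RNAs it chose for qPCR as higher in sperm than in testes. From sperm it amplified only part of the Pcsk4 transcript, not the full length. Prss21, Prss37, Tex101 and Ly6k were at 0 in sperm and at 0 to 2 counts in testes. With Ace, the 6 listed genes of this role summed to 550, 895 and 755 CPM in sperm replicates 2 to 4 (replicate 1 had 590 CPM), while the testes samples had 369 and 248 CPM.

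Acrosomal matrix and vesicle proteins were the best represented role after the ADAMs in testes. Their 8 genes summed to 434 and 668 CPM in testes and to 99.97, 0 and 55.2 CPM in sperm replicates 2 to 4, with 0 in replicate 1. Of the 5 tested, only Crisp2 was called, as lower, beside 3.65% of all genes tested. Crisp2, a cysteine-rich secretory protein of the acrosome and sperm tail, was at 0 in all 4 sperm samples against 40 and 90 counts in testes (205 ± 115 CPM, n = 2), lower by at least 12.8-fold (edgeR adjusted p = 0.0160). Acrbp, which binds proacrosin and helps to pack it into the acrosome, had 5, 0 and 3 counts in sperm replicates 2 to 4 (replicate 1 had 0), while the testes samples had 57 and 87.

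By per-length level Acrbp and Adam1a led the members in testes, with 178 ± 59.7 and 162 ± 13.8 CPM per kilobase (n = 2), and these neighbours did not differ beyond their spread. Crisp2 followed at 141 ± 78.5 and Fam170b at 124 ± 0.716 CPM per kilobase, also within the spread of Acrbp and Crisp2. In sperm Adam1a stood at 1046 ± 192 CPM per kilobase (n = 3), above Ace at 141 ± 39.4 and Acrbp at 27.9 ± 24.2. The level of Acrbp was 35.1 ± 30.5 CPM in sperm against 227 ± 70.8 CPM in testes, a ratio of 0.155 without overlap between the groups. The log2 fold change, -2.53 ± 1.34 (SE) at an edgeR adjusted p of 0.142, did not pass the test, and DESeq2 gave -3.53 with an adjusted p of 0.0230. Spesp1, an equatorial segment protein, was at 0 in all 4 sperm samples against 25 and 18 counts in testes, with a bound of at least 4.22-fold lower that was not called (adjusted p = 0.0746). Acrv1 and Zp3r each had counts in sperm replicate 2 alone, 2 and 3 of them, while Acr, the gene of the acrosomal protease acrosin, had 3 counts in testes replicate 2 and none elsewhere.

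Membrane proteins of the sperm head gave 346 and 453 CPM in testes over 9 listed genes, against 29.99, 0 and 18.4 CPM in sperm replicates 2 to 4, with 94.4 CPM in replicate 1. Fam170b, an acrosomal protein, had 67.54 and 66.33 counts in testes (210 ± 1.21 CPM, n = 2) and 0 in all 4 sperm samples, lower by at least 13.2-fold (edgeR adjusted p = 0.0148). Spaca1, which is needed to shape the acrosome, was at 0 in sperm against 12 and 19 counts, with a bound of at least 3.06-fold lower that was not called (adjusted p = 0.0746). Zpbp, a zona pellucida binding protein, had 4 counts in sperm replicate 1 and 3 in replicate 2, against 5 and 14 in testes, and the single count of Dpy19l2, which anchors the acrosome to the nucleus, came from sperm replicate 4. The other members of this role, Spaca4, Zpbp2, Eqtn, Lypd4 and Tmem190, were at 0 in sperm with 1 to 12 counts in a testes sample.

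Genes of gamete fusion and of cumulus dispersal were at 0 in every sperm sample and low in testes. Izumo1, whose product binds the egg receptor JUNO, had 0 and 3 counts in testes. Izumo2 and Izumo4 had 1 to 7 counts, and Izumo3, required for acrosome formation, had 10 and 6 counts (a bound of at least 1.57-fold lower in sperm, not called at an edgeR adjusted p of 0.0799). The 4 fusion genes reached 40.3 and 63.6 CPM in testes. The sperm hyaluronidases Spam1 and Hyal5 had 1 and 0, and 0 and 7 counts in testes, and a lower level in sperm was not detectable for them.

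Chaperones of the spermatid endoplasmic reticulum, which are required for Adam3 to reach the sperm surface, gave 58.9 and 130 CPM in testes and 20.0, 0 and 0 CPM in sperm replicates 2 to 4, with 0 in replicate 1. Clgn (calmegin) was at 0 in all 4 sperm samples against 11 and 28 counts in testes, with a bound of at least 3.86-fold lower (edgeR adjusted p = 0.0746). Calr3 had 2 counts in sperm replicate 2 against 5 in each testes sample, and Pdilt was at 0 in sperm against 3 and 8. None of the 3 was called.

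The 4 lower calls were not kept when some libraries were left out. With these genes at 0 in sperm replicates 2 to 4, the size of a fitted change is set by the testes level and the small added count. A similar size with a library left out is therefore no check on the calls. Fitted log2 fold changes of the 4 genes were -8.67 to -7.47 with all 5 samples. Without sperm replicate 2, the deepest of the sperm samples, they were -8.80 to -7.61, and the adjusted p-values were 0.0879 for Adam1b, 0.127 for Crisp2, 0.116 for Fam170b and 0.155 for Adam5. Leaving out a testes replicate left 1 testes sample, which was then assumed to vary as the sperm samples do. The adjusted p was 0.324 for each of the 4 genes without testes replicate 1, and without testes replicate 2 it was 0.293 for Adam1b and Fam170b and 0.316 for Crisp2 and Adam5, at fitted changes of -8.32 to -6.54 over both settings. Adam5 was also not called without sperm replicate 4 (-7.70, adjusted p = 0.101). With TMM factors the adjusted p was 0.0548 for Crisp2, Fam170b and Adam5, and Adam1b kept its call (adjusted p = 0.0281).

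Promoters of the members were searched for a fixed list of motifs. RefSeq promoters of 300 bases were found for 31 members and for 27025 mouse genes in all (32851 promoters). TGAGGTCA, searched on both strands, lay in a promoter of 7 of the 31, or 22.6%, beside 2.40% of all genes and 2.17% of all promoters. These were Ace, Calr3, Hyal5, Izumo2, Lypd4, Spaca3 and Spaca4. TGACGTCA was found for 1 member, Izumo1 (3.23% beside 2.03% of genes), TGACG, which lies within TGACGTCA, for 8 (25.8% beside 23.0%), and TATAAA for 6 (19.4% beside 15.7%). A match is only a stretch of letters, and binding was not measured. Why these motifs were listed is not given here, so a match in a member may have been known beforehand. The differences in share were not tested. Of the 7 genes with TGAGGTCA, Ace and Calr3 had counts in sperm replicates 2 to 4.

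The matches in the 7 genes are printed in windows of 40 bases on the gene's strand, with the octamer in capitals, to show how alike their surroundings are. In Lypd4 the octamer lies on the other strand and reads TGACCTCA, and Spaca3 holds it at 2 places. Counted from the start that RefSeq's window is built on, its first base lies 52 bases upstream in Ace, 220 in Calr3, 36 in Hyal5, 8 in Izumo2, 143 in Lypd4 and 1 in Spaca4. In Ace, Hyal5, Izumo2 and Lypd4 that start is not the outermost one of the gene, so the octamer lies within the annotated gene span, as does the second place in Spaca3.
Ace, chr11:105975121-105975160: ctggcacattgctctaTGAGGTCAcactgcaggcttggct
Calr3, chr8:72443975-72444014: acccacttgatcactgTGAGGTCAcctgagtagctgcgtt
Hyal5, chr6:24857945-24857984: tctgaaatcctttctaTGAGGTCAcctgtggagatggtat
Izumo2, chr7:44708706-44708745: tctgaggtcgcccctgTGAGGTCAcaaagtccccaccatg
Lypd4, chr7:24869811-24869850: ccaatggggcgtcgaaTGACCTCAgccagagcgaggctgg
Spaca3, chr11:80858167-80858206: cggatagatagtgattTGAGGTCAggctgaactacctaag
Spaca3, chr11:80858355-80858394: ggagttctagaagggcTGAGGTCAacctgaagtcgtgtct
Spaca4, chr7:45725794-45725833: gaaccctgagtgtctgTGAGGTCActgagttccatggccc

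Further genes of acrosome formation, exocytosis and gamete interaction were taken from a list of 53 names, of which 43 had an mRNA row and 22 were tested. Called higher were 2 of them and lower 1, beside the 3.54% and 3.65% of all genes, and their median log2 fold change was -2.23, beside -1.19 over all genes, or -0.39 beside -0.53 with genes at 0 in sperm placed at their bound. At 0 in sperm replicates 2 to 4 were 27 of the 43, or 62.8%, beside 49.2% of all mRNA genes. Syt6, a calcium sensor of acrosomal exocytosis, had 74, 38 and 57 counts in sperm replicates 2 to 4 (replicate 1 had 36), while the testes samples had 8 and 44, with an edgeR adjusted p of 0.00117 for a log2 fold change of 3.55 (SE 0.85). Csnk2a2, a casein kinase subunit needed for the shape of the sperm head, had 29, 18 and 16 counts (replicate 1 had 14), while the testes samples had 2 and 16, with an edgeR adjusted p of 0.0431 for a log2 fold change of 3.66 (SE 1.23). As levels, every sperm sample was above both testes samples for each gene.

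Neither call was kept with TMM, where the adjusted p was 0.114 for Syt6 and 0.191 for Csnk2a2, or with DESeq2 (0.0620 and 0.0835). Without sperm replicate 2 the log2 fold changes were 3.72 (adjusted p = 0.0817) and 3.82 (adjusted p = 0.136). With 1 testes sample, assumed to vary as the sperm samples do, Syt6 stood at 2.79 (adjusted p = 0.209) without testes replicate 1 and Csnk2a2 at 2.84 (adjusted p = 0.430), and without testes replicate 2 Csnk2a2 was at 5.70 (adjusted p = 0.226). Csnk2a2 was also not called without sperm replicate 4 (3.81, adjusted p = 0.0560).

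Cylc2, a protein of the cytoskeletal layer around the sperm nucleus, was at 0 in all 4 sperm samples against 62 and 64 counts in testes, lower by at least 12.4-fold (edgeR adjusted p = 0.0177). Its fitted log2 fold change, -8.03 with all 5 samples, was -8.17 without sperm replicate 2 (adjusted p = 0.124) and -8.26 without sperm replicate 4 (adjusted p = 0.0523). With 1 testes sample it was -7.68 without testes replicate 1 and -7.62 without testes replicate 2, and the call was not kept. At 0 in sperm, the size of this change is set by the testes level and the small added count. With TMM factors the adjusted p was 0.0548.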

How the data were processed

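Strand-specific, rRNA-depleted RNA-seq tables of 4 sperm and 2 testes samples were used, grouped by their titles. The authors filtered reads and, by the study's methods, aligned them with SOAPaligner/SOAP2, while the submitters' processing notes name HISAT and mm10, and the counting program is not given in the sources used here. Per transcript, the deposited tables hold an estimated count, often not whole and unscaled. They also hold FPKM values, scaled by the authors for length and depth, and the transcript length in bases, neither FPKM being used here. Transcripts that a table did not list were set to 0.

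Estimated counts of RefSeq mRNA rows (NM_ identifiers) were summed per gene and rounded for tests. Sperm replicates 2 to 4 were compared with the testes samples by edgeR 4.0.16 (quasi-likelihood test, R 4.3.3), with the mRNA total as library size and no further factors. Genes needed a summed count of at least 10. A call needed a Benjamini-Hochberg adjusted p below 0.05 over all genes tested and a fold above 2. Standard errors were calculated back from the edgeR test, as the size of the log2 fold change over the square root of the F statistic. They are not separate estimates of error. The code was tested on simulated data.

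For a gene at 0 in sperm, the fold is a bound from 3 counts over sperm replicates 2 to 4 pooled, which leaves out the spread between replicates. mRNA totals were 33511 to 100027 in sperm and 314273 and 322625 in testes, so low genes in sperm are imprecise, and intervals cover counting error only. Alternatives were DESeq2 1.42.0, TMM factors, all transcript classes as library size, filters of 0 and 30 counts, all 4 sperm samples, each replicate left out and a replicate block. Replicate pairs differed by more than sampling noise and none was merged.

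Members with a summed count of at least 40, or called, were described one by one, the others by counts and range, and of the wider list those called. Other members named singly with values were chosen after these were seen. The members and lists were chosen with earlier results of these data known. Promoters came from RefSeq (GRCm38.p6), and all 52 member transcripts matched it by accession and symbol. Locus coordinates are from the same annotation.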

Additional observations from a re-analysis of the deposited data

Results flagged for a closer look

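In the 4 sperm samples, the level of Adam1b was 536 CPM in sperm replicate 1 and 0 in replicates 2 to 4, so that replicate 1 lay far from the others. Adam32 was at 10.0 CPM in sperm replicate 2, which is a single count, and at 0 in the other 3. The rule is set so that about 1 in 20 groups stands out by chance, and 9 measures were looked at. Where 3 of the 4 samples are at 0, any count in the other sample stands out, so that rate does not apply here.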

How the results depend on the processing

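The number of members called higher, 1, became 0 with TMM factors, DESeq2 or no filter on low counts, and stayed at 1 when any replicate was left out. The number called lower, 4 of 23 tested, became 1 with TMM, 8 with DESeq2 and 10 with all 4 sperm samples. It was 0 of 45 tested without the filter and 10 of 14 tested with a summed count of at least 30. With a sperm replicate left out it was 0 to 5. Over all genes, the 242 higher became 23 with TMM and 15 without the filter (60 to 606 with a replicate left out). The 249 lower became 90 with TMM, 824 with DESeq2, 4 without the filter, 793 with at least 30 counts and 1214 with all 4 sperm samples (49 to 698 with a replicate left out). With the replicate number of the titles as a block over all 6 samples, 0 members and 103 genes were called lower, and Adam1a kept its call at a log2 fold change of 3.16. Samples with the same number did not deviate together (correlations -0.0192 and -0.0482 over 6949 genes), so the numbers were not shown to pair the samples. The ratio of the members' shares, 1.56, was 1.79 with all 4 sperm samples, 1.29 over the counts of all transcript classes, 0.389 without Adam1a, 0.0878 without Adam1a, Adam1b and Ace, and 1.43 to 1.71 with a replicate left out. The number of members counted in testes, 40, was 29 with at least 3 counts and 21.1 at the depth of sperm replicate 3. Of 267 fold changes of tested members under alternatives, 3 reversed, none of them of a called member. These were Zp3r with TMM (-0.20), and Zpbp with all 4 sperm samples (0.046) or the block (0.96). Except where fewer genes or samples were tested, the cause was not tested. With a testes replicate left out, the single testes sample was assumed to vary as the sperm samples do. Low counts limit the members: of the 34 at 0 in sperm, 22 had a testes level under the limit of detection, and 8 of the other 12 were not called.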
